A study of Rattus norvegicus with 6 samples.

Results

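The endogenous opioid system of the hippocampus was examined through the 7 genes that encode its peptide precursors and receptors. They were Penk, Pdyn and Pnoc, and Oprm1, Oprd1, Oprk1 and Oprl1. Every probe set whose array annotation names exactly 1 of these genes was taken. This gave 14 probe sets, of 7006 with a single gene name and 8740 in all apart from array controls. All 7 genes were found, of 4736 genes with a named probe set. The rule for taking probe sets uses gene names and no intensity, but the gene set was proposed with earlier results of these data known. Total RNA had been extracted from whole hippocampus of rats of the Syracuse High Avoidance (SHA) line and of the Syracuse Low Avoidance (SLA) line. The names refer to performance in two-way active avoidance, a task in which a signalled shock can be avoided by moving to the opposite compartment. All rats of both lines had been tested, and tissue was taken 2 weeks later. Each line had 3 pools, numbered 1 to 3 in the labels, and each pool combined 3 rats. The labels give neither age nor sex. Since every animal had been tested, a line difference and a difference in the response to testing cannot be told apart.

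Penk, Pdyn and Pnoc encode large precursor proteins that are cut in dense-core vesicles into short opioid peptides: enkephalins from proenkephalin, dynorphins from prodynorphin, and nociceptin from prepronociceptin. The receptors couple to inhibitory G proteins, which lower cyclic AMP, open potassium channels and close presynaptic calcium channels. In the rodent hippocampus dynorphin is best known from granule cells of the dentate gyrus and their mossy fibres. Enkephalin is found in perforant path fibres, in some granule cells and in interneurons, nociceptin mainly in interneurons, and the mu receptor, the product of Oprm1, is prominent on inhibitory interneurons.

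No opioid precursor or receptor passed the test for a difference between SHA and SLA. Each member had an adjusted p of 1.00 in limma's test, adjusted by Benjamini-Hochberg over all probe sets tested. The smallest unadjusted p was 0.20, for an Oprm1 probe set. The comparison as a whole called 0 of 6555 probe sets at an adjusted p under 0.05 (percent called 0). At an unadjusted p under 0.05 it called 98, or 1.5% of the probe sets tested, and 0 of the opioid probe sets. In none of the 14 opioid probe sets were the SHA pools all above or all below those of SLA. Over the 6555, 5.66% of probe sets had pools that did not overlap, 2.01% with SHA higher and 3.65% with SHA lower. Of the 14, 9 were bright enough to be tested after the dimmest 25% of probe sets had been left out. The other 5 (2 of Oprm1, both of Oprk1 and that of Oprd1) were read from a fit with no such filter over 8740 probe sets, which called 0 (percent called 0). With all probe sets kept, 2.32% had an unadjusted p under 0.05 and 5.15% had pools that did not overlap. Differences below are log2 SHA minus SLA with the standard error (SE) of the fit and its 95% interval, and intensities are given on the linear scale the authors deposited, with n = 3 pools per line. Probe sets bind with different strength, so intensities are compared between pools and never between probe sets. In whole tissue, fewer cells that make a transcript and less of it per cell cannot be told apart.

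**Figure D1:**
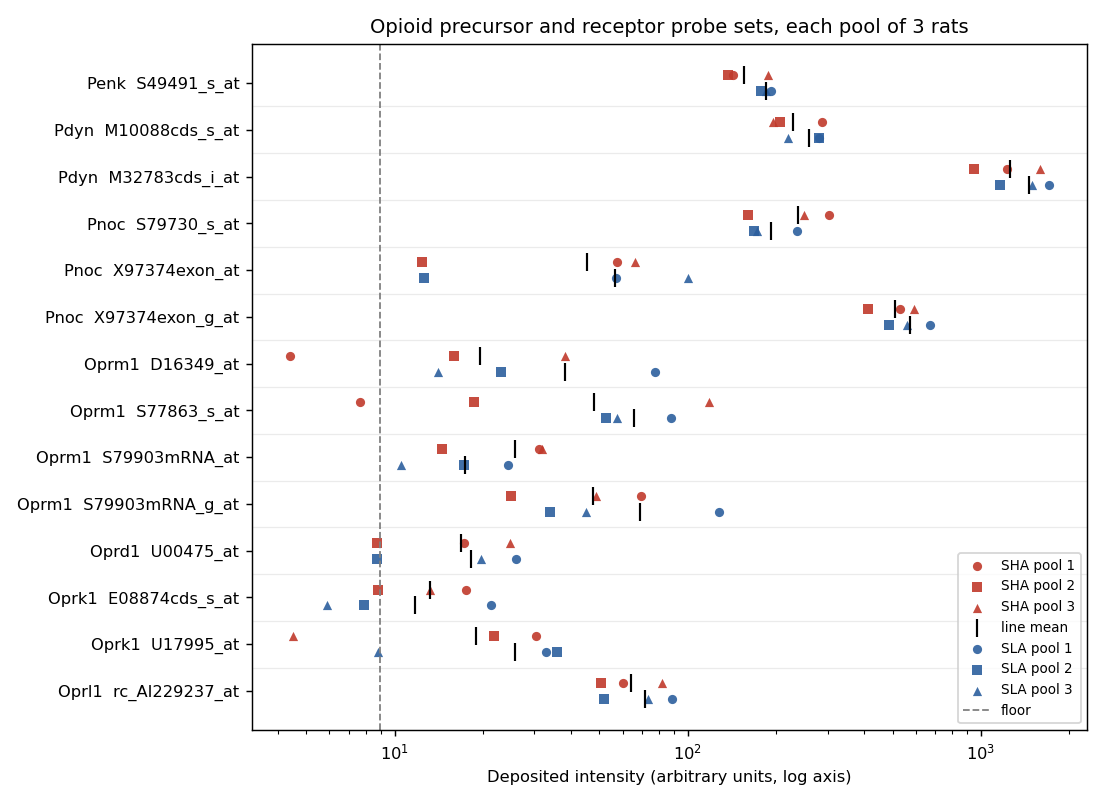
Deposited intensity (x axis, arbitrary units, log axis) of each of the 14 opioid probe sets (y axis) in 3 SHA pools (red) and 3 SLA pools (blue), with the mean of each line as a black bar and the floor of 8.9 as a dashed line. The lines overlap in every probe set, and values of Oprm1, Oprd1 and Oprk1 reach down to or below the floor.

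Penk, the enkephalin precursor, was read by 1 probe set, S49491_s_at. Its intensity was 142.6, 137.3 and 188.4 in SHA pools 1, 2 and 3. It was 191.7, 178.4 and 185.0 in SLA pools 1, 2 and 3. SHA pools 1 and 2 were below all SLA pools, while SHA pool 3 lay within the SLA range. The line means were 156 ± 28.1 in SHA and 185 ± 6.65 in SLA (SD), a difference of -0.26 ± 0.31 (SE; 95% interval -0.95 to 0.43, unadjusted p = 0.42 in limma's fit across all probe sets). The interval spans an SHA level between 0.518 and 1.35 times that of SLA. Scaling the arrays to a common median instead of a common trimmed mean separated the lines, as it did for 4.91% of all probe sets: Penk then read 1.76, 1.70 and 1.82 times its array's median in SHA and 2.02, 2.03 and 2.03 times in SLA. The difference was then -0.20 and its unadjusted p in limma 0.52. After quantile normalization, which also equalizes the arrays, it was -0.18 and the lines overlapped. When 1 pool was left out, the Penk difference ran from -0.40 without SHA pool 3 to -0.17 without SHA pool 2.

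Pdyn, the dynorphin precursor, was read by M32783cds_i_at and M10088cds_s_at, and neither passed the test. M32783cds_i_at read 1224, 944 and 1590 in SHA pools 1 to 3 and 1714, 1159 and 1490 in SLA pools 1 to 3. In both lines pool 2 was lowest, and SHA pool 3 exceeded 2 of the 3 SLA pools. The line means were 1253 ± 324 and 1454 ± 279, a difference of -0.23 ± 0.27 (95% interval -0.83 to 0.38, unadjusted p = 0.42 in limma). The other probe set, M10088cds_s_at, read 286, 206 and 195 in SHA and 280.3, 279.5 and 219.9 in SLA. Here pool 3 was lowest in both lines and SHA pool 1 was the highest of all. Its difference was -0.19 ± 0.29 (95% interval -0.84 to 0.46), and without SHA pool 1 it was -0.37 with pools that did not overlap, where 13.5% of all probe sets did not. Without SHA pool 3 it was -0.089, and M32783cds_i_at differed by -0.041 without SHA pool 2. The line differences of both probe sets were thus much alike, but over the 6 pools the probe sets hardly followed each other (Pearson r = 0.0495, Spearman rho = 0.0857 on log2 values). The mean of both gave -0.21 ± 0.22, with a 95% interval from -0.69 to 0.27. For Pdyn, 2 probe sets gave the narrowest gene-level interval of the 7 members.

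The sequence before the annotated start of Pdyn is shown because Pdyn is the only precursor with an entry among the annotated starts used. Those before the 2 annotated starts of Oprm1 are shown because the Oprm1 probe sets disagreed in direction. Whether these sequences relate to the probe set values was not tested. Each line gives the 250 bases upstream of a start in RefSeq (GRCr8), 5′ to 3′ on the gene's strand. Capitals mark TATAA and CCAAT, searched on both strands, so that CCAAT on the opposite strand appears as ATTGG. Of the 7 members, 3 had an entry.
Pdyn, chr3:137366504-137366753, minus strand: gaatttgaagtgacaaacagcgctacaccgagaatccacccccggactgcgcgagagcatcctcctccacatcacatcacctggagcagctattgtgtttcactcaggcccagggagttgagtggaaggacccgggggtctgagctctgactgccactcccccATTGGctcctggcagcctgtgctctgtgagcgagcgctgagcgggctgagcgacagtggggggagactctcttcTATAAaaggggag
Oprm1, chr1:45565121-45565370, plus strand: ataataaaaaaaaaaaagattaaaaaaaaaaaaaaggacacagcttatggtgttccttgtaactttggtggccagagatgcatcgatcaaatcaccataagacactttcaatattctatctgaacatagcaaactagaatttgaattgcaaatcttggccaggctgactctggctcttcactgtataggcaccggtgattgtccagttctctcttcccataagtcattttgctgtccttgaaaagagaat
Oprm1, chr1:45585733-45585982, plus strand: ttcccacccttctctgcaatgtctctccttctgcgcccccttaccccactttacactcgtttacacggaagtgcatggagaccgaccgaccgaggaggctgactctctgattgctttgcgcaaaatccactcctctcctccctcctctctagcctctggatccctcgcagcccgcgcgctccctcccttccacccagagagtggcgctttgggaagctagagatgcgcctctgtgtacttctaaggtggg
The Pdyn stretch holds 1 TATAA, beginning 13 bases before the annotated start, and 1 CCAAT on the opposite strand, beginning 87 bases before it. The same windows of 33469 annotated starts held TATAA in 24.0% and CCAAT in 34.0%. TGACGTCA, the palindromic cyclic AMP response element, was in none of these stretches and in 1.59% of all windows. Of the Oprm1 stretches, the one at the lower coordinate had 36.4% G and C and the other 58.4%, against 59.2% for Pdyn and a median of 51.2% over all windows. Which transcript of Oprm1 each probe set reads is not given in the sources used here.

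Pnoc, the nociceptin precursor, had 3 probe sets, which did not all point the same way. X97374exon_g_at read 528, 413 and 590.0 in SHA pools 1 to 3 and 670, 484 and 561 in SLA pools 1 to 3. Pool 2 was again lowest in both lines, and the SHA range overlapped that of SLA. The line means were 510.4 ± 89.8 and 572 ± 93.2, a difference of -0.17 ± 0.25 (95% interval -0.73 to 0.40). S79730_s_at read 304, 161 and 249.7 in SHA and 236, 169 and 173 in SLA, a difference of 0.28 ± 0.34 in the opposite direction (95% interval -0.48 to 1.03). It was the only opioid probe set of the 9 tested with a higher mean in SHA, and without SHA pool 2 its pools did not overlap (0.53, where 14.6% of all probe sets did not). Without SHA pool 1 its difference was 0.077. X97374exon_at read 57.2, 12.4 and 66.3 in SHA and 57.1, 12.6 and 100.4 in SLA. On this probe set both pools numbered 2 read about the same low value, while the pools numbered 3 differed by -0.60. The line difference was -0.21 ± 0.94. Over the 6 pools the 3 Pnoc probe sets correlated with one another at r between 0.55 and 0.78. Averaged over its probe sets, Pnoc differed by -0.03 ± 0.43, with a 95% interval from -1.0 to 0.94.

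Among the receptors, Oprm1, the mu receptor through which morphine acts, had 4 probe sets and the widest spread. S77863_s_at read 7.60, 18.7 and 117.8 in SHA pools 1 to 3 and 87.4, 52.5 and 57.6 in SLA pools 1 to 3. SHA pool 3 was the highest of the 6 pools and the other SHA pools were the lowest, with SHA pool 1 under the floor of 8.9. The difference was -1.25 ± 0.90 (95% interval -3.28 to 0.78, unadjusted p = 0.20 in limma). Without SHA pool 3 it was -2.37 with an unadjusted p of 0.011 in limma's fit over all probe sets and pools that did not overlap, where 15.1% of all probe sets did not and 2% had an unadjusted p under 0.05. Without SHA pool 1 it was -0.45 and without both pools numbered 1 it was -0.23. S79903mRNA_g_at read 69.1, 25 and 48.8 in SHA and 128, 33.9 and 44.9 in SLA, a difference of -0.40 ± 0.68. The remaining probe sets were dim. D16349_at read 4.40, 16.0 and 38.2 in SHA and 77.4, 23.1 and 14.1 in SLA, with a difference of -0.74 ± 0.83. S79903mRNA_at read 31.0, 14.5 and 31.8 in SHA and 24.3, 17.3 and 10.5 in SLA, with a difference of 0.57 ± 0.48. The 4 probe sets therefore gave 3 differences below 0 and 1 above. D16349_at and S77863_s_at followed each other over the pools (r = 0.80, rho = 0.77), whereas S77863_s_at and S79903mRNA_at did not (r = -0.02). The mean of the 4 was -0.46 ± 0.65, with a 95% interval from -1.91 to 1.00.

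Oprl1, the nociceptin receptor, was the other receptor gene to pass the filter. Its probe set rc_AI229237_at read 60.1, 50.8 and 81.8 in SHA pools 1 to 3 and 88.4, 51.9 and 73.5 in SLA pools 1 to 3. The values of the lines interleaved, with pool 2 lowest in each. The line means were 64.2 ± 15.9 and 71.3 ± 18.4, a difference of -0.14 ± 0.48 (95% interval -1.21 to 0.93). Oprl1 ordered the 6 pools as Pnoc on X97374exon_g_at did (rho = 1.00, r = 0.94), and so did Pdyn on M32783cds_i_at, which does not encode its ligand (rho = 1.00, r = 0.96).

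Oprd1, the delta receptor for enkephalins, and Oprk1, the kappa receptor for dynorphins, were near the floor, so their line differences are poorly measured. The Oprd1 probe set U00475_at read 17.2, 8.70 and 24.7 in SHA and 26, 8.70 and 19.8 in SLA, with 1 pool of each line under the floor (-0.09 ± 0.55). Oprk1 on U17995_at read 30.4, 21.9 and 4.50 in SHA and 32.9, 35.7 and 8.80 in SLA. Pool 3 was under the floor in both lines, and the difference was -0.27 ± 0.73. Oprk1 on E08874cds_s_at read 17.6, 8.80 and 13.2 in SHA and 21.4, 7.90 and 5.90 in SLA, with 3 of the 6 pools under the floor (0.10 ± 0.44). The intervals reached from a level of 0.238 times to 2.88 times that of SLA for U17995_at, and from 0.506 to 2.26 times for E08874cds_s_at. A change of 2-fold in either direction thus lies inside the interval for U17995_at. No line difference was detectable in these receptors at these intensities, which does not show that the lines have equal levels.

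**Figure D2:**
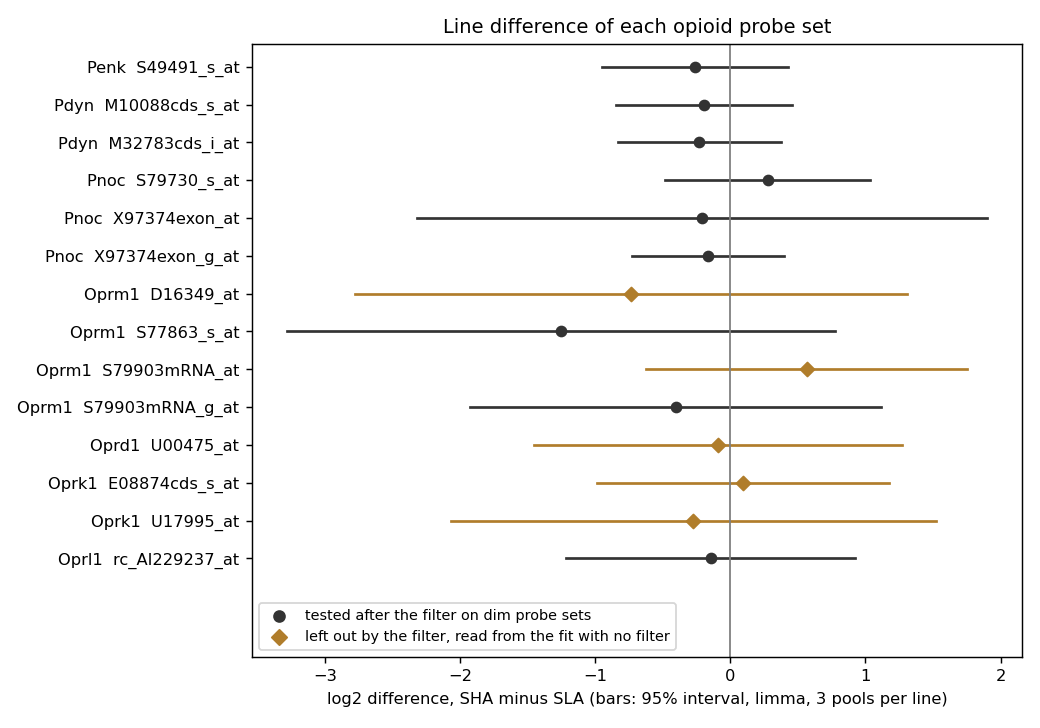
Log2 difference SHA minus SLA (x axis) with its 95% interval from limma for each of the 14 opioid probe sets (y axis), 3 pools per line, with dark circles for the 9 tested after the filter and ochre diamonds for the 5 left out by it. Every interval includes 0; that of Pdyn M32783cds_i_at runs from -0.83 to 0.38 and that of Oprm1 S77863_s_at from -3.28 to 0.78.

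Of the 9 opioid probe sets tested, 8 had a lower mean in SHA and 1 a higher one, with a median difference of -0.21. The count lower in SHA was 5 of 9 without SHA pool 2 and also without SLA pool 1. Over all 6555 probe sets the median was -0.01 and 51.9% lay lower in SHA. Probe sets of a gene read the same RNA and all share 6 arrays, so the 8 are not independent observations. The pools that share a number in both lines were then compared with each other, although no label says what the number stands for. Among the pools numbered 1, SHA was lower than SLA in 10 of the 14 opioid probe sets and higher in 4. Among those numbered 2, SHA was lower in 12 and both values lay under the floor in 2. Among those numbered 3, SHA was higher in 11, lower in 2 and under the floor in both lines in 1. Of the 9 opioid probe sets tested, 6, 9 and 2 were lower in SHA within the numbers 1, 2 and 3. Of all probe sets tested, 55.0%, 55.7% and 44.2% were lower in SHA within these numbers. The opioid probe sets tested thus leaned in the same direction as the array as a whole within each number, but they are few and not independent. Penk differed by -0.43, -0.38 and 0.03 within the numbers 1, 2 and 3. Pdyn on M32783cds_i_at differed by -0.49, -0.30 and 0.09, and Pnoc on X97374exon_g_at by -0.34, -0.23 and 0.07. Oprm1 on S77863_s_at differed by -3.30, -1.49 and 1.03, and Oprl1 by -0.56, -0.03 and 0.15. In all of these the sign changed in the pools numbered 3, as it did for Oprm1 on S79903mRNA_g_at (-0.89, -0.44 and 0.12). The other tested probe sets of Pdyn and Pnoc did not share this order. Pdyn on M10088cds_s_at differed by 0.03, -0.44 and -0.17 within the numbers 1, 2 and 3. Pnoc differed by 0.37, -0.07 and 0.53 on S79730_s_at, and by 0.0025, -0.02 and -0.60 on X97374exon_at. With the pool number as a block in the fit, 0 of the 14 had an unadjusted p under 0.05, where the block raised the share of all probe sets to 5.26%.

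**Figure D3:**
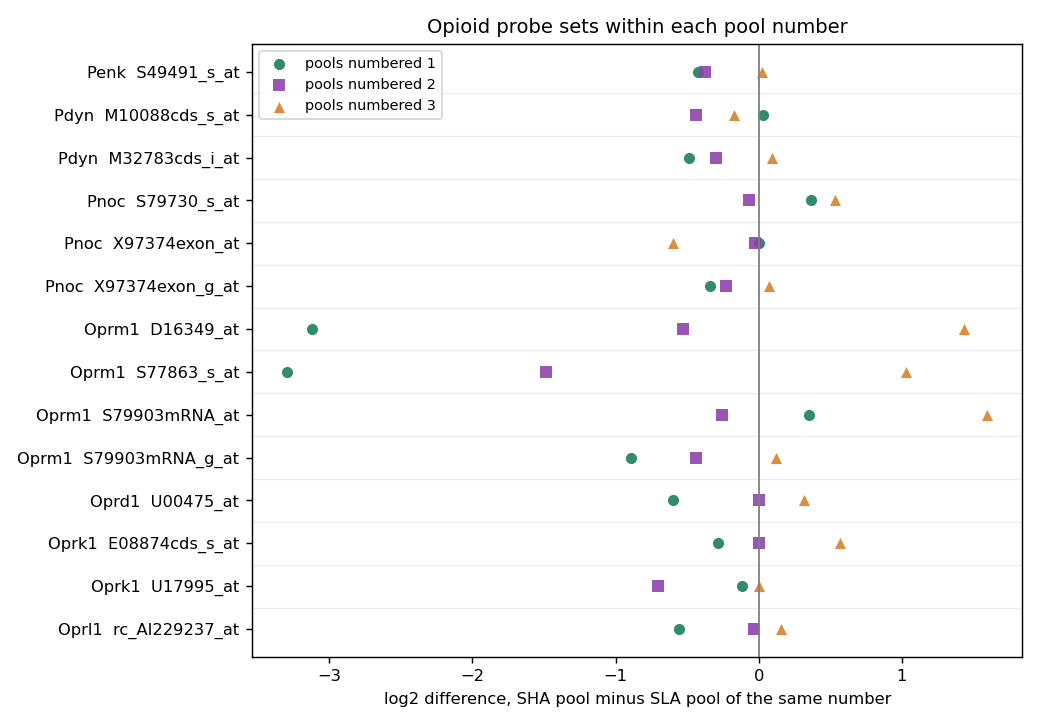
Log2 difference of the SHA pool minus the SLA pool of the same number (x axis) for each opioid probe set (y axis), with pools numbered 1 as green circles, 2 as purple squares and 3 as orange triangles. The differences within number 3 lie at or above 0 in 12 of 14 probe sets, and those within number 2 lie at or below 0 in all 14.

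The arrays differed in the brightness of their dim probe sets, and several opioid probe sets moved with it. The 25th percentile of intensity was 23.7, 18.3 and 35.2 on SHA arrays 1 to 3 and 31.5, 21.6 and 24.5 on SLA arrays 1 to 3, while the 75th percentile lay between 245 and 270.0 on all arrays. Over the 6 arrays the log2 value of Pdyn on M32783cds_i_at correlated with the log2 25th percentile at r = 0.92 (rho = 0.94), and at r = 0.92 without SHA arrays 2 and 3, the pair farthest from the median. For Oprl1 the correlation was r = 0.91, for Oprd1 0.89, for Pnoc on X97374exon_g_at 0.89 and for Penk 0.73. Without the same arrays these were 0.94 for Oprl1, 0.86 for Oprd1, 0.99 for Pnoc and 0.44 for Penk, so the relation for Penk rests on those arrays. Pdyn on M10088cds_s_at showed none (r = -0.08), nor did Oprk1 on U17995_at show a positive one (r = -0.36). The median over the 9 opioid probe sets tested was 0.69, against 0.10 over all 6555. An r above 0.8 was seen in 3 of the 9 and in 10.9% of all. The part of this array level in the opioid values was not tested. After quantile normalization Pdyn on M32783cds_i_at differed by -0.23 between the lines and Oprl1 by -0.11.

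**Figure D4:**
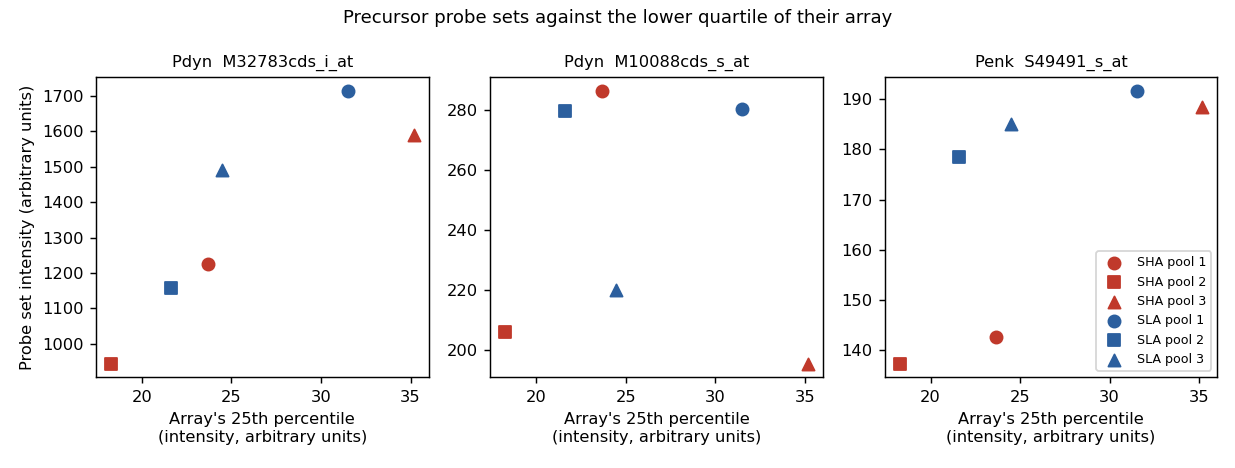
Intensity of 2 Pdyn probe sets and of Penk (y axes, arbitrary units, starting above 0) against the 25th percentile of intensity on the same array (x axis, arbitrary units) in 3 SHA pools (red) and 3 SLA pools (blue), with circles, squares and triangles for pools 1, 2 and 3. Pdyn M32783cds_i_at rises with the array's lower quartile (r = 0.92), M10088cds_s_at does not (r = -0.08), and Penk lies between (r = 0.73, or 0.44 without SHA pools 2 and 3).

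The precursors resembled one another over the pools on their brightest probe sets. Pdyn and Pnoc correlated at r = 0.98 (rho = 1.00), Penk and Pdyn at 0.83 and Penk and Pnoc at 0.76, with 6 pools and 1 array behind each point. Many other genes were as close: among 3811 genes Pnoc ranked 19th in likeness to Pdyn, and Pdyn ranked 137th in likeness to Penk. The genes most like Pdyn were Fosl2, a transcription factor of the AP-1 family (r = 0.996), Muc5ac, a secreted mucin (0.99), and Slc4a1, the anion exchanger of red cells (0.99). Those most like Pnoc were the olfactory receptor gene Or4b1d, Ticam1, an adaptor of Toll-like receptors, and Atp4a, the proton pump of the stomach, all at 0.99. Those most like Penk were Cxcl10, a chemokine, Gfi1, a transcriptional repressor of blood cells, and Lck, a kinase of T cells, all at 0.98. These genes were picked as the highest of 3811 correlations over 6 points each. Whether their values exceed what such a choice gives by itself was not tested.

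The genes that make, cut and relay opioid peptides were read from lists, each gene by its brightest probe set, and no listed gene passed at an adjusted p under 0.05. For comparison, of the 3812 genes that passed the filter 1746 were higher and 2066 lower in SHA, with a median of -0.03 and 54 at an unadjusted p under 0.05. Pomc, the precursor of beta-endorphin, read 39.7, 63.5 and 96.9 in SHA and 56.6, 54.1 and 62.9 in SLA (0.11 ± 0.51). The SHA pools of Pomc enclosed those of SLA. Of the prohormone processing genes, 6 of 9 were higher and 3 lower, with a median of 0.06. Scg5, the chaperone of prohormone convertase 2, differed by 0.40 ± 0.25, and Cpe, the carboxypeptidase that trims the cut peptides, by 0.30 ± 0.31, while Pcsk5, a proprotein convertase, differed by -0.69 ± 0.60. Of the peptidases that break down opioid peptides, 7 of 10 were higher and 3 lower, with a median of 0.13. Among them Npepps, the puromycin-sensitive aminopeptidase, differed by 0.30 ± 0.22, and Dpp3, which cleaves enkephalins, by -0.36 ± 0.28. None of these genes had an unadjusted p under 0.05.

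On the receptor side, 10 of 15 genes for inhibitory G proteins, their partner subunits and RGS proteins were higher in SHA, with a median of 0.19. Rgs14, an RGS protein of hippocampal area CA2, differed by 0.27 ± 0.24 and Gnaz, an inhibitory alpha subunit, by -0.29 ± 0.28. Of the effectors, such as potassium channels, adenylyl cyclases and protein kinases, 10 of 11 were higher with a median of 0.12. Prkca, a protein kinase C, differed by 1.09 ± 0.63, and Cacna1a, the pore of the P/Q-type calcium channel, by -0.90 ± 0.73. Cacna1a read 57.1, 426.5 and 408.5 in SHA and 215.6, 548.5 and 551.9 in SLA, so SHA pool 1 weighs heavily in it. The receptor kinases and arrestins were split 3 to 3. Grk3, a kinase that phosphorylates activated receptors, read 26.2, 63.2 and 32.4 in SHA and 172, 111.9 and 72.1 in SLA. All SHA pools of Grk3 lay below all SLA pools, as in 3.65% of all probe sets tested. Its difference was -1.56 ± 0.56 (unadjusted p = 0.019 and adjusted p = 1.00 in limma). Grk3 was the only gene of the signalling and processing lists with an unadjusted p under 0.05. Of all 3812 genes that passed the filter, 54 had one. Transcription factors known to act on Penk or Pdyn were split 6 higher to 5 lower (median 0.08), with Fos at -0.33 ± 0.27 and Jund at -0.44 ± 0.42. The Jund difference rests largely on SLA pool 1: it read 144.6, 123.8 and 122.3 in SHA and 325.5, 124.8 and 133.9 in SLA.

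Marker lists of cell types and of neighbouring regions were read in the same way. Of the excitatory hippocampal markers, 10 of 13 were on the array and 8 passed the filter, all 8 with a higher mean in SHA (median 0.25). Summed intensities here run over all genes of a list on the array, each by its brightest probe set, so bright genes weigh most. For the 10 excitatory markers the sum ran from 13692 to 17797 in SHA pools and from 12613 to 17090 in SLA pools. Inhibitory neuron markers, from cells that hold much of the Penk and Pnoc mRNA, were higher in SHA in 10 of 12 (median 0.19). Cck differed by 0.41 ± 0.22 and Vip by 0.88 ± 0.53, both with pools that did not overlap and SHA higher. So did Neurod2 of the excitatory markers (0.35 ± 0.25), and 2.01% of all probe sets tested. None of these markers had an unadjusted p under 0.05 in limma. Striatal markers, from a region with far more Penk and Pdyn mRNA, had 8 of 12 on the array, and of the 7 that passed 5 were higher and 2 lower (summed intensity 1337 to 1733 in SHA and 1235 to 1416 in SLA). The median of this list was 0.24. Drd1, a dopamine receptor of striatal neurons, differed by -1.03 ± 0.69, Adcy5, an adenylyl cyclase, by 0.32 ± 0.34 and Gng7, a G protein subunit, by 0.24 ± 0.26. Hypothalamic markers had 7 of 9 lower, with summed intensities of 887 to 1655 and 1080 to 2026. Microglia markers had 8 of 9 on the array, and of the 6 that passed all 6 were lower, with a median of -0.54. The summed intensities of the 8 were 2095 to 3029 in SHA and 3180 to 4112 in SLA. These sums did not overlap. The sums of the receptor kinases and arrestins did not either, with SHA lower (1381 to 1708 in SHA and 1727 to 1877 in SLA). Those of the effectors did not overlap with SHA higher (4929 to 4983 in SHA and 4417 to 4790 in SLA). The sums of every other list overlapped. Ctss alone read 1932, 2394 and 1408 in SHA and 2056, 3106 and 3237.5 in SLA, with pools that overlapped. Cd74 (-2.67 ± 0.76) and C1qb (-0.61 ± 0.26) had pools that did not overlap with SHA lower, as in 3.65% of all probe sets. Their unadjusted p was 0.0059 and 0.039 in limma, and neither passed after adjustment. Granule cell and mossy fibre markers, a list that holds Penk and Pdyn, had 5 of 6 lower (median -0.24), the exception being Calb1 at 0.73 ± 0.41. Calb1 read 507.9, 648.5 and 604.4 in SHA and 169.7, 512.4 and 506.9 in SLA, so SLA pool 1 weighs heavily in it. Of 4 genes in the remaining neighbouring-region list on the array, 3 passed, 1 higher and 2 lower. Astrocyte markers had 6 of 8 higher, oligodendrocyte markers 6 of 7 lower, choroid plexus markers 5 of 6 lower, and blood and endothelial markers 6 of 6 lower. No marker of these lists read under the floor in all 6 pools. The part of cell composition in the opioid values was not tested.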

How the data were processed

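The deposited table holds 1 linear intensity per probe set for each of 6 one-colour arrays, as the authors deposited it. The sources used here name no software, scaling target or detection calls. The 2%-trimmed mean was between 250.3 and 250.4 on every array, so the authors' values had already been scaled, and they were used as they stand. Between 4.90% and 15.8% of an array's probe sets read under a floor of 8.9, the 10th percentile of all values other than the 59 array controls. Lower values were set to the floor and log2 was taken. The dimmest 25% by mean over all pools were left out, which left 6555 probe sets. Line differences came from limma 3.58.1 in R 4.3.3 (lmFit, eBayes with an intensity trend, two-sided, Benjamini-Hochberg over all probe sets tested, threshold 0.05), tested first on simulated data. Gene names came from the platform annotation, of which 6985 matched a gene table of assembly GRCr8.

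Probe sets are named by the array's design. Names ending in _s_at mark probes that related transcripts can share, and those in _i_at a set with fewer probes than usual. Members, lists and tests were chosen with earlier results of these data known. All member probe sets are described. From each list the named genes are among the 3 of smallest unadjusted p, with Pomc always, and genes most like a precursor are the 3 of highest correlation. Pools are replicates, and p-values measure only the spread between them. No label says what pool numbers share. Deviations from the line means correlated at 0.44, 0.68 and 0.13 between pools numbered 1, 2 and 3, all above 0.1, while the correlation of SHA pool 3 with SLA pool 1 was 0.16. Number 3 was thus not singled out as a pair, and deviations of 3 pools sum to 0, so these correlations depend on one another. Taking the numbers as a pairing was a working choice made from the data alone, which these data cannot test. Printed errors, intervals and p-values come from the fit without the block unless the block is named. Alternatives were other normalizations, filters, floors and variance models, weighting arrays, blocking on pool number, leaving out pools and averaging a gene's probe sets.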

Additional observations from a re-analysis of the deposited data

How the results depend on the processing

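The block with array weights and the setting without both pools numbered 1 were chosen after the data were seen. No opioid probe set passed at an adjusted p under 0.05 in limma under any of the settings run. Over all probe sets the count was 0 except with the replicate block and array weights together, where it was 12. At an unadjusted p under 0.05 the opioid count of 0 became 2 with block and weights (Pdyn M32783cds_i_at and Oprm1 S77863_s_at, where 13.3% of all probe sets did so) and 1 without SHA pool 3 (S77863_s_at, where 2% of all probe sets did so). With the replicate block alone the opioid count past the threshold stayed at 0. Over all probe sets the block raised the share with an unadjusted p under 0.05 in limma from 1.5% to 5.26%. The count of opioid probe sets whose pools do not overlap is read without the block, so the block could not change it. That count was 1 with median centring (Penk), 1 without both pools numbered 1 (Pdyn M10088cds_s_at, where 24.2% of all probe sets did not overlap) and 0 to 2 when 1 pool was left out (10.8% to 15.7% of all).

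Of 245 differences of single probe sets under the alternatives, 225 kept their sign, 19 had the opposite sign and 1 was 0 (Oprk1 E08874cds_s_at with the floor at the 25th percentile), none of them called. Apart from leaving out single pools, these were Oprk1 U17995_at at 0.68 with array weights and, without both pools numbered 1, Oprd1 at 0.16, Oprl1 at 0.062 and Oprm1 D16349_at at 0.45. Many of the 245 could not change sign. Other filters, other variance models and the replicate block without weights leave the difference itself as it was. So does averaging for a gene with a single probe set. The count of kept signs is therefore no measure of robustness. When 1 pool was left out, differences ran from -0.51 to 0.26 for Oprd1, from -0.14 to 0.63 for Oprk1 E08874cds_s_at, from -0.92 to 0.24 for U17995_at, from -0.36 to 0.028 for Oprl1, from -0.79 to 0.17 for Oprm1 S79903mRNA_g_at and from -1.07 to 0.56 for Pnoc X97374exon_at. The sign changes of the dim receptors came at intensities near the floor, and the cause was not tested.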
